A study of Mus musculus with 16 samples.

Results

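Ribosomal proteins are the protein components of the 2 ribosomes of a mouse cell, one in the cytosol and one inside mitochondria. The genes described here are those whose symbol in the array annotation starts with Rpl or Rps (cytosolic) or Mrpl or Mrps (mitochondrial) followed by a digit, plus Rplp0 and Rpsa, without the Rps6k kinases. They number 96 of the 8252 genes that have a probe set mapped to a single gene. The cytosolic set holds 35 genes, 17 of the large and 18 of the small subunit, and the mitochondrial set holds 61 genes, 40 of the large and 21 of the small subunit, with the subunit read from the symbol. For a gene with several probe sets, the one of highest mean signal was taken.

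RNA was measured on Affymetrix mouse U74Av2 arrays, 1 array per sample, in 6 groups. In the embryonic stem (ES) cells, 3 arrays came from each of 4 groups: ESVJ, a +/+ line; an Abca1 +/- line derived from it; E14, the +/+ control of the other mutant; and a Cdk4 +/- line. Abca1 encodes a transporter of cholesterol out of cells, and Cdk4 a cyclin-dependent kinase of the G1 phase. ESVJ and Abca1 +/- ES cells were kept on irradiated embryonic fibroblast feeders, separated from them, and then held on gelatin for about 2 days before RNA was taken with Trizol and RNeasy. E14 and Cdk4 +/- cells grew without feeders and their RNA was taken with RNeasy, so line, culture and RNA isolation differ together between E14 and ESVJ and cannot be told apart. In liver, 2 arrays came from +/+ mice and 2 from mice labelled Abca1 +/-, all in a background that mixes the strains 129/SvJ and C57BL6/J. Livers were frozen before RNA was taken with RNeasy. The labels give each mutant ES line as a single line, do not give the age of the mice, and do not say whether arrays of a group came from separate cultures or animals, so p-values measure only the spread between these samples.

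Cytosolic ribosomes are assembled in the nucleolus from ribosomal RNA and ribosomal proteins with the help of many biogenesis factors, and translate the mRNAs made in the nucleus. Mitochondrial ribosomes contain ribosomal RNA encoded in mitochondrial DNA but proteins encoded in the nucleus, and translate a small number of mRNAs for subunits of the respiratory chain. Messenger RNAs of cytosolic ribosomal proteins typically begin with a run of pyrimidines, and promoters of both gene sets often carry sites for ETS family factors or YY1.

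Promoter sequences of 8 members are shown because these members carry the largest differences described below, or the motifs that were searched. They run from 90 bases before to 20 bases after the annotated start, 5′ to 3′ on the strand of the gene, and come from the RefSeq promoter table of GRCm38.p6. Capitals mark CCGGAAG (the ETS family motif), AAGATGG (YY1), GCATGCGC (NRF1) or CACGTG (the E-box, read by Myc and related factors) on either strand, or a run of at least 8 pyrimidines that lies between 10 bases before and 20 bases after the start.
Rpl39l, chr16:10170138-10170247, plus strand: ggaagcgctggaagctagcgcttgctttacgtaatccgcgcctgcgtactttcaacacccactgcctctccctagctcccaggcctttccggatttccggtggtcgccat
Rpl7a, chr2:26910717-26910826, plus strand: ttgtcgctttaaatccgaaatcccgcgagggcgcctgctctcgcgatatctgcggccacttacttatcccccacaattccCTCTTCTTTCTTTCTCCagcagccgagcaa
Rpl41, chr10:128549149-128549258, minus strand: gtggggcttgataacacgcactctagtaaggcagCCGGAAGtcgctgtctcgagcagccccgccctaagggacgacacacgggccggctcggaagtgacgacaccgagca
Rps3a1, chr3:86142649-86142758, minus strand: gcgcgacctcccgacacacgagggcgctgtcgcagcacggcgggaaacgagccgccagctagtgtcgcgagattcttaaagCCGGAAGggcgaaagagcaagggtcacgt
Mrpl12, chr11:120484547-120484656, plus strand: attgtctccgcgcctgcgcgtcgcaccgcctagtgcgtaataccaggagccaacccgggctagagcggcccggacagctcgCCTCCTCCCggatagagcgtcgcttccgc
Mrpl20, chr4:155802788-155802897, plus strand: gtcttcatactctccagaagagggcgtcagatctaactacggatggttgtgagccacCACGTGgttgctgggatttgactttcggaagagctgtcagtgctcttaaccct
Mrpl27, chr11:94653701-94653810, plus strand: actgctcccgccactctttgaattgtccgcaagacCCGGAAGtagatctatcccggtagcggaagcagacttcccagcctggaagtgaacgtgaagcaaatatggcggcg
Mrps12, chr7:28741802-28741911, minus strand: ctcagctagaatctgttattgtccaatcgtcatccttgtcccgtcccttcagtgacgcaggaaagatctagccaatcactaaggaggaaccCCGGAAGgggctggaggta

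Of the 96 members, 82 had a promoter in this table, and a gene with several listed promoters was counted as holding a motif if any of them did. In the 300 bases of the table (250 before and 50 after the start), CCGGAAG was present in 12 of 28 cytosolic promoters (42.9%) and 19 of 54 mitochondrial promoters (35.2%), against 12.9% of 17492 protein-coding genes. AAGATGG was present in 7 cytosolic (25%) and 11 mitochondrial promoters (20.4%), against 7.18% of all. The pyrimidine run at the start, as in Rpl7a, was found in 10 cytosolic promoters (35.7%) and 6 mitochondrial promoters (11.1%), against 13.1% of all. The shares for GCATGCGC were 7.14%, 7.41% and 3.94%, and those for CACGTG, present in Mrpl20, were 10.7%, 7.41% and 8.91%. The motifs do not overlap one another in the printed windows. A match describes these letters only, and no match, as in the window of Rpl39l, says only that they are not in this stretch.

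All signals below are given after each array was scaled to a 2% trimmed mean of 500. The signal of one probe set cannot be set against that of another, so levels are compared only for the same gene between groups. A probe set was tested where its mean signal over the arrays fitted reached 100. Over all 16 arrays, 28 cytosolic and 58 mitochondrial members reached it. The 7 cytosolic members below it, Rpl35a, Rpl38, Rpl39, Rps14, Rps15, Rps20 and Rps27l, had mean signals of 15.4 to 79.3, and Mrpl14, Mrpl49 and Mrps16 had 14.9 to 91.8. Rpl32 was also below it in the fit of ES cells alone, and Rpl39l in the fit of livers alone, which leaves 27 cytosolic members in each. The table holds no detection calls, so a low signal cannot be told from background. Another 39 probe sets for cytosolic and 5 for mitochondrial ribosomal proteins map to several genes and are not members.

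Array quality and markers bear on the values that follow. ES cell markers had a mean of at least 100 for 10 of 10 genes in ESVJ and Abca1 +/- ES cells and for 9 of 10 in E14 and Cdk4 +/- cells, and hepatocyte markers for 12 of 12 in both liver groups. Replicate 1 of the livers labelled Abca1 +/- stood apart: its ratio of 3′ to 5′ signal was 4.10 for Gapdh and 8.23 for Actb, while the other 15 arrays had 0.801 to 1.19 and 1.04 to 2.14. Among those 15, the Actb ratio was 1.04 to 1.4 on the 12 ES arrays and 1.78 to 2.14 on the 3 livers. The part of this in the differences between liver and ES cells was not tested. The signal of the BioB hybridisation control ranged from 377 to 2010 and was above 1000 on 4 arrays, namely replicate 3 of ESVJ, replicate 1 of Abca1 +/- ES, replicate 2 of Cdk4 +/- ES and replicate 2 of the +/+ livers. Cdk4 was lower in the line labelled for its mutation, with 5720 ± 188 (SD, n = 3) in E14 and 3680 ± 209 (SD, n = 3) in Cdk4 +/- cells (log2 difference -0.63, limma adjusted p = 0.00436). Abca1 was not lower by a difference that passed: its log2 difference was -0.26 in the ES line (limma adjusted p = 1), and in the livers labelled Abca1 +/- its mean signal was 627 ± 102 (SD, n = 2) against 314 ± 18.5 (SD, n = 2) in +/+ livers (limma adjusted p = 0.191). Where the Abca1 probe set lies relative to the mutation is not given in the sources used here.

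The level of each set was described on every array. For each array, this level of a set was taken as the median over its members of the log2 signal minus the member's mean in ESVJ. The cytosolic level was -0.22, 0.09 and 0.13 in ESVJ, 0.18, -0.07 and -0.21 in Abca1 +/- ES cells, -0.52, -0.44 and -0.44 in E14, and -0.54, -0.11 and -0.57 in Cdk4 +/- cells. E14 lay below every ESVJ array, while replicate 2 of Cdk4 +/- lay above replicate 1 of ESVJ and replicate 3 of Abca1 +/- ES cells. Cdk4 +/- cells were tested against E14 only. In ESVJ, Abca1 +/- ES, Cdk4 +/- ES and +/+ liver, the array with the BioB signal above 1000 was also the one with the highest cytosolic level of its group. Results without these arrays, a setting chosen after the data were seen, are given where they differ. The mitochondrial level was 0.03, 0.12 and -0.14 in ESVJ, 0.02, 0.07 and 0.02 in Abca1 +/- ES cells, -0.20, -0.28 and -0.44 in E14, and -0.49, -0.53 and -0.43 in Cdk4 +/- cells. In the mitochondrial level, neither E14 nor Cdk4 +/- cells overlapped ESVJ or Abca1 +/- ES cells. E14 and Cdk4 +/- cells overlapped each other, with replicate 3 of E14 (-0.44) just below replicate 3 of Cdk4 +/- (-0.43). In +/+ livers both levels lay around those of ESVJ, at -0.20 and 0.24 for the cytosolic and -0.08 and 0.15 for the mitochondrial set.

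**Figure D1:**
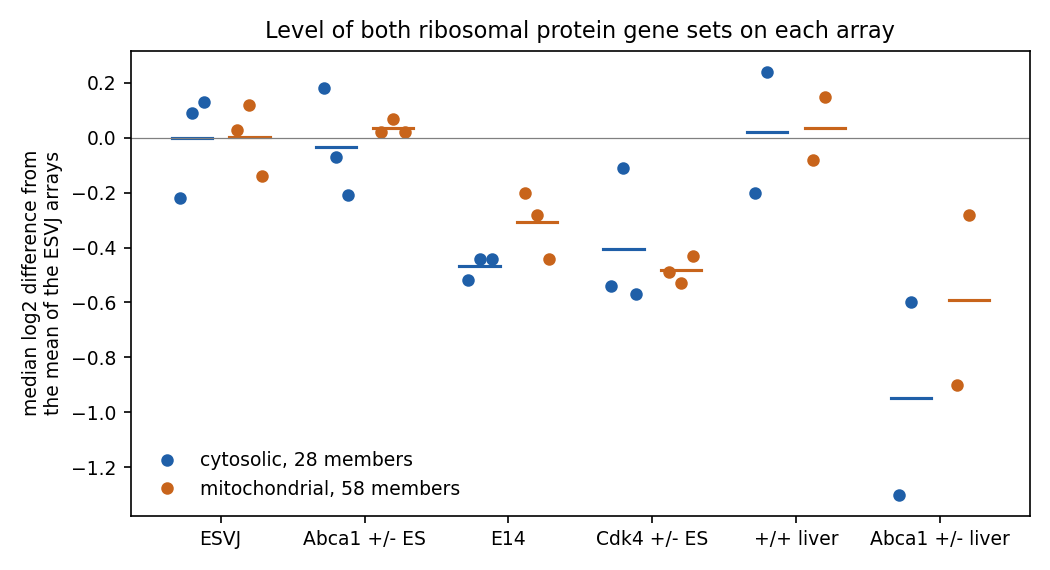
Level of the cytosolic (blue, 28 members) and mitochondrial (orange, 58 members) ribosomal protein genes on each of the 16 arrays, as the median log2 difference from the mean of the ESVJ arrays; points are arrays and lines are group means. The E14 arrays lie between -0.52 and -0.20 for both sets, and the lowest array is replicate 1 of the livers labelled Abca1 +/-, at -1.30 for the cytosolic set.

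Between the +/+ lines, with arrays scaled to the same trimmed mean, part of the ribosomal protein genes were lower in E14 than in ESVJ and none was higher. Of 27 cytosolic members tested, 15 fell (55.6%), and of 58 mitochondrial members 23 fell (39.7%), by limma at an adjusted p under 0.05. Of all 7349 probe sets tested, 22.8% were lower and 19.8% higher in E14, together 42.6% called in either direction. The median log2 difference was -0.45 for cytosolic and -0.29 for mitochondrial members, against -0.09 for all probe sets tested. By subunit, 8 of 13 large and 7 of 14 small cytosolic members fell, and 13 of 38 large and 10 of 20 small mitochondrial members fell. The summed signal of 12 feeder fibroblast markers was 4670 to 4860 in ESVJ and 6190 to 6370 in E14, with 7 of 12 at a mean of at least 100 in both. Sparc (953 and 2300) and Col1a1 (388 and 937) had the higher mean in E14, whereas Col1a2 (1330 and 867), Fbln2 (253 and 128) and Thy1 (114 and 47.7) had the lower. The summed signal of 10 ES cell markers was 56500 to 64200 in ESVJ and 33900 to 39700 in E14, and that of 6 extraembryonic endoderm markers 2390 to 2560 and 914 to 1330; the part of these markers in the result was not tested. In bulk RNA such as this, fewer cells of a type and less RNA per cell cannot be told apart.

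Whether the cytosolic set as a whole was lower than all probe sets rests on the scaling. With quantile normalization, which gives every array the same distribution of signals, the cytosolic median was -0.07, beside -0.08 for all probe sets, and 7 members fell, while the mitochondrial median was -0.33 with 25 members lower. Without the arrays of high BioB signal, here replicate 3 of ESVJ, 7 cytosolic and 26 mitochondrial members fell. Without replicate 2 of ESVJ, and without replicate 1 or 3 of E14, the cytosolic count was 8, 9 and 8, and in the fit of all 16 arrays 8 cytosolic and 15 mitochondrial members fell. How many of all probe sets were called in each of these fits is not given here, so a change of members cannot be told from one of all calls. Of the 39 cytosolic probe sets that map to several genes, 34 were tested, of which 21 fell and none rose, with a median of -0.49.

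Among large subunit proteins of the cytosolic ribosome, Rpl39l, a paralogue of Rpl39 best known from testis, differed most. Its signal was 1840, 2290 and 1970 in ESVJ, 1840, 1820 and 1860 in Abca1 +/- ES cells, 470, 562 and 284 in E14, and 372, 517 and 385 in Cdk4 +/- cells. The lowest array of ESVJ and Abca1 +/- ES cells thus lay far above the highest of E14 and Cdk4 +/- cells. The log2 difference of E14 from ESVJ was -2.18 ± 0.19 (SE, n = 3 and 3; limma adjusted p = 4.71e-07), a signal 4.52 times lower. Rpl7l1, a paralogue of Rpl7, was at 864, 966 and 804 in ESVJ and 399, 454 and 346 in E14 (log2 difference -1.08 ± 0.15, SE; limma adjusted p = 4.32e-05). Its values in Cdk4 +/- cells, 616, 426 and 578, also lay below those of ESVJ. For both genes the call held whichever of the 6 arrays was left out, and in all 11 other settings tried. Rpl7a, whose promoter starts in a pyrimidine run, fell from 16100 to 10300 (log2 difference -0.63) and Rpl41, the smallest ribosomal protein, from 29400 to 18000 (-0.67). Rpl41 lost its call without replicate 3 of ESVJ, without replicate 2 of ESVJ and without replicate 1 of E14 (limma adjusted p = 0.0936, 0.0636 and 0.0538), and with quantile normalization, where its difference was -0.09.

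Among small subunit proteins, Rps4x, encoded on the X chromosome, was at 17700, 20400 and 22300 in ESVJ and 12900, 13100 and 12900 in E14 (log2 difference -0.63 ± 0.15, SE; limma adjusted p = 0.00401). Rps3a1 was at 18800, 23300 and 25200 in ESVJ and 13600, 14400 and 14300 in E14 (-0.66 ± 0.17, SE; limma adjusted p = 0.00694). For both genes the E14 arrays were close together and below all ESVJ arrays. With quantile normalization these differences shrank to -0.21 and -0.20 and still passed.

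In the mitochondrial large subunit, Mrpl50, a protein without a bacterial counterpart, was at 849, 739 and 558 in ESVJ and 350, 322 and 222 in E14 (log2 difference -1.18 ± 0.24, SE; limma adjusted p = 0.00101). The groups did not overlap, and its second probe set gave -0.75 (limma adjusted p = 0.000825). Mrpl13, Mrpl15 and Mrpl39 fell by 0.97, 0.93 and 0.73 on the log2 scale. Mrpl39 was at 1680, 1740 and 1670 in ESVJ and 1050, 948 and 1040 in E14. In the small subunit, Mrps31 was at 1610, 1990 and 2030 in ESVJ and 1050, 1000 and 938 in E14 (-0.89 ± 0.13, SE; limma adjusted p = 8.69e-05). Mrps18a, which is named after the small subunit but is known as a protein of the large subunit, was lower by its chosen probe set (-0.83; limma adjusted p = 0.00209), whereas its 3 other probe sets gave -0.45, -0.17 and -0.05, of which only the first passed.

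Of the wider pathway, 41 of 76 ribosome biogenesis genes fell in E14 against ESVJ (53.9%, against 22.8% of all probe sets) and 3 rose, with a median log2 difference of -0.42. Wdr74 (-1.42), Ddx18 (-0.74) and Pes1 (-0.93), which act in maturation of the large subunit, and Nolc1 (-1.30), a nucleolar phosphoprotein, passed with the smallest p. Bysl, an assembly factor of the small subunit, rose by 0.97. Of 22 genes of mitochondrial translation and transcription tested, 5 fell and 1 rose, with a median of -0.22; 22.7% of the list fell, beside 22.8% of all probe sets. Slirp (-0.76) and Ptcd3 (-0.61), which bind mitochondrial RNA, and Ssbp1 (-1.03), which binds single-stranded mitochondrial DNA, were among those that fell.

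**Figure D2:**
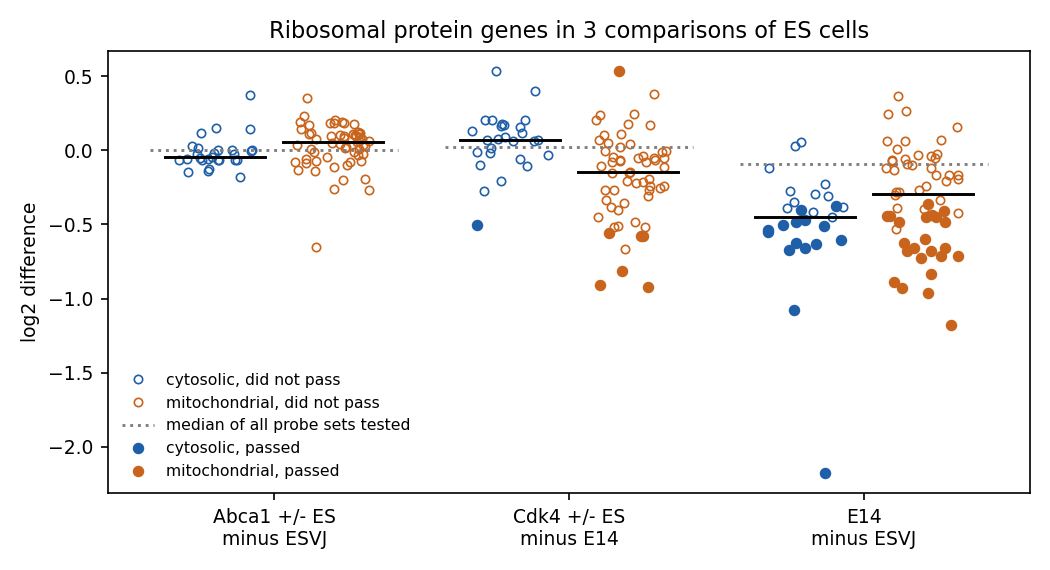
Log2 difference of each tested member (27 cytosolic in blue, 58 mitochondrial in orange) in 3 comparisons of ES cells; filled points passed limma at an adjusted p under 0.05, black lines are medians of a set and dotted lines the median of all probe sets tested. Neighbouring comparisons share ESVJ or E14 arrays. The medians lie at -0.05 and 0.05 for Abca1 +/- against ESVJ, 0.07 and -0.15 for Cdk4 +/- against E14, and -0.45 and -0.29 for E14 against ESVJ.

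In Cdk4 +/- cells, 6 mitochondrial ribosomal protein genes and 1 cytosolic gene were lower than in E14, and 1 mitochondrial gene was higher. The difference between the sets was not tested. Of 58 mitochondrial members 6 fell (10.3%) and 1 rose, against 2.33% of all probe sets lower, 2.59% higher and 4.91% in either direction. Of 27 cytosolic members 1 fell (3.7%) and none rose. The mitochondrial median was -0.15, with 45 of 58 members (77.6%) negative, and the cytosolic median 0.07, with 9 of 27 (33.3%) negative, beside 0.02 and 47.1% for all probe sets. The 12-gene sum of feeder fibroblast markers was 7610 to 8580 in Cdk4 +/- cells against 6190 to 6370 in E14, with 7 of 12 genes at a mean of at least 100 in both, although neither line was grown on feeders. Most of this difference lay in Sparc, with means of 3740 and 2300. The sum of the 10 ES cell markers was 40600 to 46700 in Cdk4 +/- cells against 33900 to 39700 in E14, and that of the 6 extraembryonic endoderm markers 1340 to 1490 against 914 to 1330. The part of these markers in the result was not tested.

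Mrpl12, a protein of the large subunit stalk, was at 1700, 1610 and 882 in E14 and 577, 856 and 674 in Cdk4 +/- cells. The groups did not overlap, but replicate 3 of E14 lay just above replicate 2 of Cdk4 +/-. The log2 difference was -0.92 ± 0.20 (SE, n = 3 and 3; limma adjusted p = 0.0203). Mrpl20, shown above with an E-box in its promoter window, was at 856, 980 and 900 in E14 and 613, 575 and 643 in Cdk4 +/- cells (log2 difference -0.56 ± 0.12, SE; limma adjusted p = 0.0197). Its arrays were close together within each group and clearly separate between them. Mrpl54 was at 512, 553 and 510 in E14 and 345, 240 and 279 in Cdk4 +/- cells (-0.81; limma adjusted p = 0.037). Mrpl46 was at 409, 409 and 364 against 262, 233 and 264 (-0.58; limma adjusted p = 0.0486). It passed in 1 of 6 fits with 1 array left out and in 3 of 11 other settings. Its difference shrank to as little as -0.23, and its limma adjusted p reached 0.524 in those other settings.

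In the small subunit, Mrps10 was at 1100, 840 and 898 in E14 and 526, 346 and 628 in Cdk4 +/- cells (-0.91 ± 0.22, SE; limma adjusted p = 0.0317). Mrps28 was at 1040, 899 and 812 in E14 and 537, 685 and 586 in Cdk4 +/- cells (-0.58; limma adjusted p = 0.0269). Neither gene overlapped between the groups. Mrps31 alone rose, from 1050, 1000 and 938 in E14 to 1570, 1330 and 1480 in Cdk4 +/- cells (0.54 ± 0.13, SE; limma adjusted p = 0.0356), and its Cdk4 +/- values lay above all E14 and below all ESVJ arrays.

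**Figure D3:**
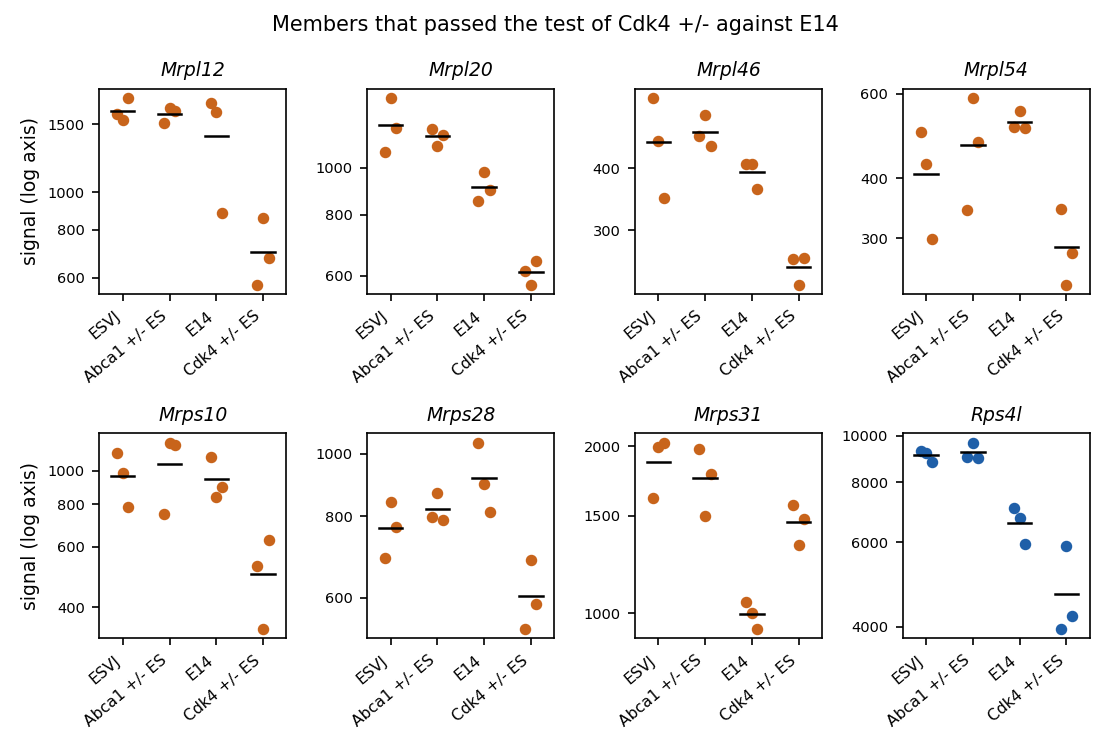
Signal (log axis) of the 7 mitochondrial members (orange) and of Rps4l (blue) that passed in Cdk4 +/- against E14, on the 12 ES cell arrays; points are arrays and lines are group means. In each panel the Cdk4 +/- arrays lie on one side of the E14 arrays, below them for 7 genes and above them for Mrps31.

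These calls sit close to the threshold. Over all members with a second probe set that could be tested, passed or not, 6 of 13 had the sign of the chosen one and 7 the opposite sign. That count therefore does not describe the called members alone. With 1 array left out, 1 mitochondrial member was called without replicate 1 of E14, none without replicate 2 and 10 without replicate 3. None was called without replicate 1 of Cdk4 +/-, 5 without replicate 2 and 1 without replicate 3. The shares of all probe sets called in these fits are not given here, so the counts cannot tell a change of members from one of all calls. The mitochondrial median stayed negative in these 6 fits, between -0.24 and -0.09. In the fit of all 16 arrays none was called, and the adjusted p of the 8 members that passed in the ES fit reached at least 0.0826 with some array left out. The difference itself between the Cdk4 and Abca1 effects in ES cells passed for 0 of 85 members by limma, against 0.626% of all probe sets, 0.422% higher and 0.204% lower. At an unadjusted p under 0.05 there were 2 of 27 cytosolic and 14 of 58 mitochondrial members, and 15.2% of all probe sets. The smallest limma adjusted p among members was 0.118, for Mrps28.

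Rps4l was the cytosolic member that fell in Cdk4 +/- cells, from 7060, 6730 and 5950 in E14 to 3960, 5880 and 4220 (-0.51 ± 0.14, SE; limma adjusted p = 0.0477). Replicate 2 of Cdk4 +/- was almost level with replicate 3 of E14. Its probe set is one of 14 among members whose name marks possible cross-hybridisation, the RefSeq table lists the gene as a transcribed pseudogene, and the call was lost without replicate 1 or 3 of Cdk4 +/- or replicate 1 or 2 of E14 (limma adjusted p = 0.204, 0.179, 0.169 and 0.156). Its parent by name, Rps4x, was at 12900, 13100 and 12900 in E14 and 13500, 18500 and 13400 in Cdk4 +/- cells and did not pass. The next cytosolic genes by p, Rpl7l1 (0.40) and Rpl13a (-0.28), did not pass either (limma adjusted p = 0.143 and 0.239). Without replicate 2 of Cdk4 +/-, the array of high BioB signal, Rpl7l1 passed at 0.55 (limma adjusted p = 0.0448) and the cytosolic median turned to -0.08.

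Of 76 ribosome biogenesis genes 7 fell in Cdk4 +/- cells (9.21%, against 2.33% of all probe sets) and none rose, with a median of -0.07. Ppan, a nucleolar factor of large subunit maturation, fell from 1510 to 564 (-1.37 ± 0.16, SE; limma adjusted p = 0.000454), and Bop1, which acts in a complex with Pes1, from 1530 to 791 (-0.93). Imp3, Polr1d, Rrp9, Lsg1 and Eif6 fell by 0.46 to 0.59 on the log2 scale. Of 22 mitochondrial translation and transcription genes 2 fell (9.09%, with a median of -0.08 over the list), both elongation factors: Tufm (-0.59; limma adjusted p = 0.0498) and its exchange factor Tsfm (-0.59; limma adjusted p = 0.04). Ppan and Tsfm were known from earlier results of these data when the lists were chosen, so the shares of both lists are a description only.

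Between Abca1 +/- and ESVJ cells no member of either set passed by limma, against 0.0272% of all probe sets. At an unadjusted p under 0.05 there were 0 cytosolic members and 1 mitochondrial member, beside 3.28% of all probe sets. This member was Mrpl50, at 333, 485 and 512 in Abca1 +/- against 849, 739 and 558 in ESVJ (-0.66; limma adjusted p = 1). Its second probe set and the other members gave no call. The medians were -0.05 for the cytosolic and 0.05 for the mitochondrial set, and all tested cytosolic differences lay between -0.18 and 0.37. A 95% confidence interval of a log2 difference reached 0.37 to either side for the median probe set of these ES comparisons.

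Comparing +/+ liver with ES cells, some ribosomal protein genes differed strongly, in both directions. The share of members called was smaller than that of all probe sets, and the medians of both sets lay near 0 against ESVJ. Against ESVJ, 3 of 28 cytosolic members rose and 10 fell (46.4% called), and 15 of 58 mitochondrial members rose and 20 fell (60.3% called). Of all 7841 probe sets, 23.8% were higher and 46.2% lower in liver, together 70%. Rpl32, one of the 3 that rose, reached the signal filter only through the livers. The medians were 0.10 and 0.01, against -0.42 for all probe sets. Against E14, which shares the liver arrays with the first comparison, 12 cytosolic members rose, Rpl32 among them, and 7 fell (67.9% called). Of the mitochondrial members 22 rose and 14 fell (62.1% called). The medians were 0.40 and 0.27. Of all probe sets, 26.6% were higher and 46.7% lower, together 73.3%.

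The direction of the cytosolic set in liver depends on the scaling, on single arrays and on the probe sets used. With quantile normalization its median turned to -0.56 against ESVJ and -0.55 against E14, where the median of all probe sets moved to -0.12 and -0.13. With arrays scaled to an equal median signal it was 0.48 and 0.69, with all probe sets at -0.07 and -0.12. Without replicate 3 of ESVJ and replicate 2 of the +/+ livers, the arrays of high BioB signal, it was -0.18 against ESVJ. Without replicate 2 of the +/+ livers alone it was -0.20 against ESVJ, and 9 cytosolic members were called against E14, 4 of them higher, in a fit whose share of all probe sets called is not given here. Without replicate 1 of ESVJ it was -0.06, and without probe sets marked for cross-hybridisation -0.36. The mitochondrial median against ESVJ was -0.08 without replicate 2 of the +/+ livers and -0.03 without replicate 3 of ESVJ. With quantile normalization the mitochondrial median was 0.19 and 0.53, and with equal medians 0.38 and 0.57.

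Of 76 ribosome biogenesis genes, 70 fell in liver against ESVJ (92.1%, against 46.2% of all probe sets) and 1 rose, with a median of -2.60, and 67 fell and 3 rose against E14, with a median of -2.40. Ncl, the nucleolar protein nucleolin, went from 17500 in ESVJ to 374 in +/+ liver (-5.44), Tsr1, a factor of small subunit maturation, from 3910 to 63.6 (-5.55), and Nop56 and Nop58, the core proteins of box C/D particles that guide methylation of ribosomal RNA, fell as well (-4.57 and -4.75). Rcl1, a further factor of small subunit maturation, rose by 1.46. Of 22 mitochondrial translation and transcription genes 12 fell against ESVJ (54.5%, against 46.2% of all) and 2 rose (9.09%, against 23.8% of all), with a median of -0.64. Among those that fell was Polrmt, the mitochondrial RNA polymerase (-1.64). The 2 that rose were Mtif2, an initiation factor (0.69), and Fars2, the phenylalanyl-tRNA synthetase of mitochondria (1.21).

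**Figure D4:**
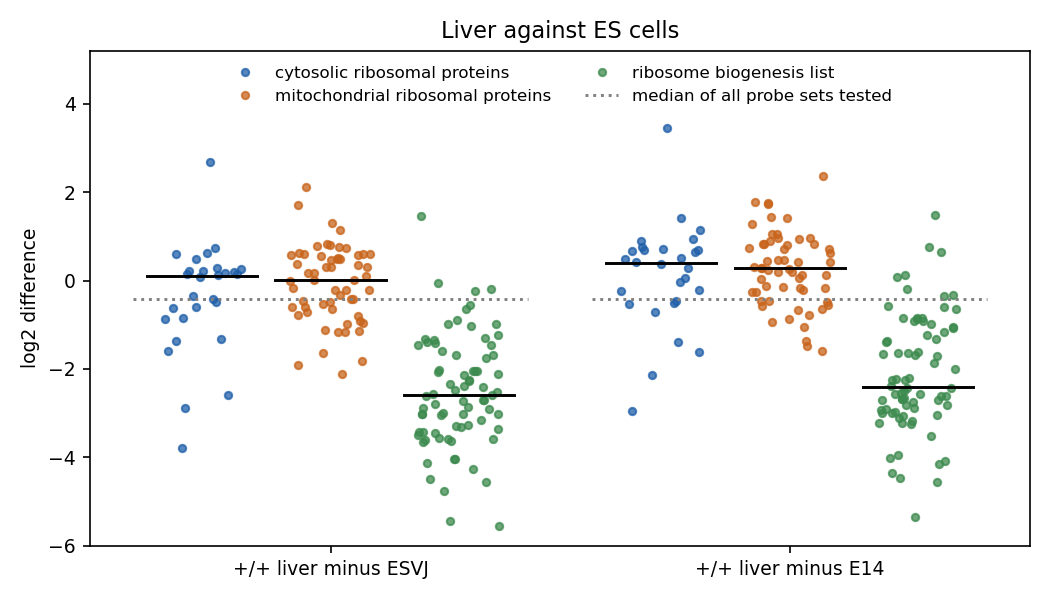
Log2 difference of +/+ liver from ESVJ and from E14 for 28 cytosolic (blue) and 58 mitochondrial (orange) ribosomal protein genes and 76 ribosome biogenesis genes (green); black lines are medians and dotted lines the median of all probe sets tested. Both comparisons use the same 2 liver arrays. The median is -2.60 for the biogenesis list and 0.10 for the cytosolic set against ESVJ.

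Several cytosolic paralogues and a few core members were far lower in liver. Rpl39l was at 108 and 125 in +/+ liver, against 1840 to 2290 in ESVJ and 284 to 562 in E14 (-3.80 and -1.62; limma adjusted p = 1.12e-10 and 6.18e-06). It was under the signal filter in the livers alone and reached it here through the ES cells, which favours a fall. In order of level, ESVJ and Abca1 +/- ES cells were highest and overlapped, E14 and Cdk4 +/- cells followed and overlapped, and liver was lowest. Its parent Rpl39 was at 9.73 to 66.8 on all 16 arrays and was not tested. Rpl7l1 was at 295 and 244 in +/+ liver and fell by 1.59 against ESVJ. Rps4l was at 1240 and 1750, against 8820 to 9290 in ESVJ (-2.60; limma adjusted p = 6.4e-09), whereas its other probe set, with a mean signal of 108, gave 0.57 and did not pass. Rps4x was at 8070 and 7810 against 17700 to 22300 (-1.33; limma adjusted p = 1.57e-05); its other probe set, with a mean of 133, gave 0.53 and did not pass. Against E14 the chosen probe set of Rps4x gave -0.71 and the other 1.74, and both passed with opposite sign (limma adjusted p = 0.00512 and 0.00388). Rps27l stayed at 6.56 to 32.5 on all arrays, while Rps27 had means of 893 in ESVJ and 1070 in +/+ liver.

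Rpl22 showed the same disagreement. Its chosen probe set was at 40.3 and 95.6 in +/+ liver and 568 to 757 in ESVJ (-2.89; limma adjusted p = 5.09e-09), while the second, of mean signal 154, gave 0.74 (limma adjusted p = 0.0671). Over the 15 second probe sets that could be tested against ESVJ, 8 had the sign of the chosen one and 7 the opposite sign; in E14 against ESVJ it was 11 of 13. Rpl13a fell from 5660 to 2260 (-1.37) and passed in each setting tried. Rpl32 went from 45.3, 72.6 and 22.1 in ESVJ to 325 and 626 in +/+ liver (2.68), and its ES values are too low to be told from background. Rpl32 reached the signal filter only through the livers, which favours a rise, so its test is not used as support. Rpl41 rose from 29400 to 49000 (0.74; limma adjusted p = 0.0175) and Rps18 from 22200 to 34700 (0.63; limma adjusted p = 0.0349), yet both lost the call without replicate 2 of the +/+ livers, without replicate 1 of ESVJ, or with quantile normalization, where the difference of Rpl41 turned to -0.13.

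**Figure D5:**
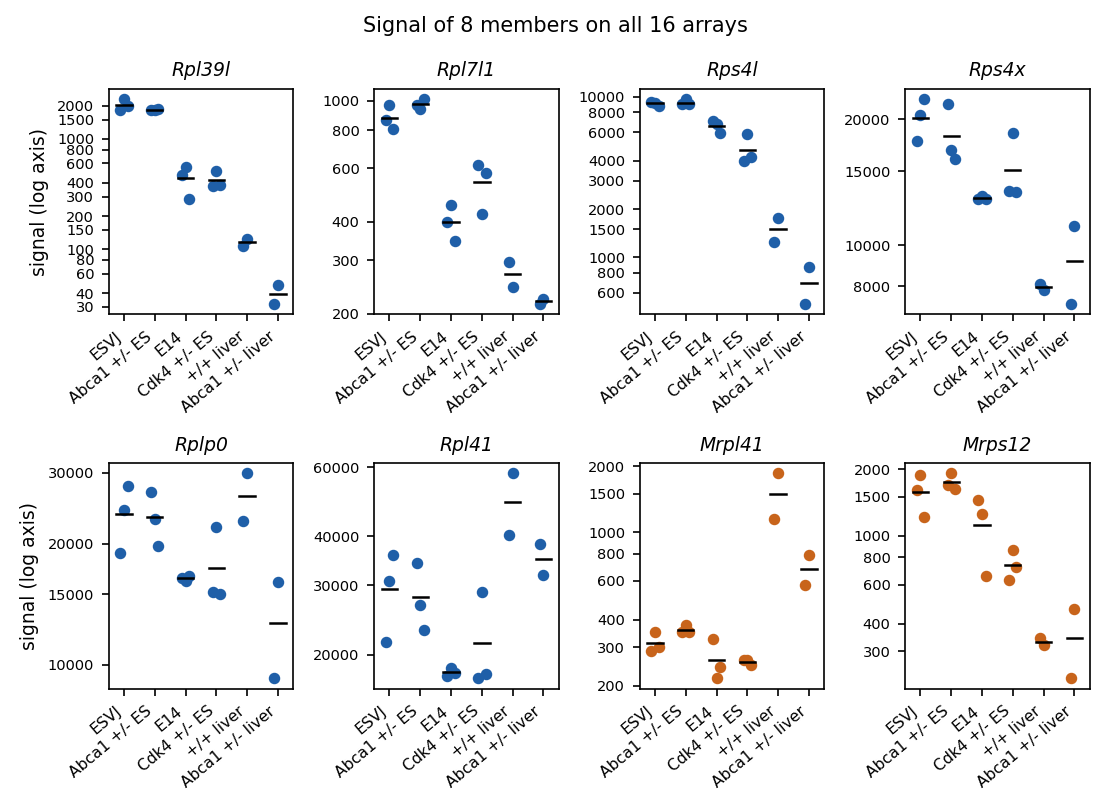
Signal (log axis) of 6 cytosolic (blue) and 2 mitochondrial (orange) members on all 16 arrays; points are arrays and lines are group means. Rpl39l steps from 1820 or more in ESVJ and Abca1 +/- ES cells to 562 or less in E14 and Cdk4 +/- cells and 125 or less in liver, while Mrpl41 is above 500 only in liver.

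In the mitochondrial large subunit, Mrpl41 was at 1150 and 1850 in +/+ liver and 287, 351 and 300 in ESVJ (2.12 ± 0.22, SE; limma adjusted p = 1.17e-07). Mrpl27, a homologue of a bacterial protein near the site of peptide bond formation, was at 3440 and 4010 against 936, 1370 and 1080 (1.71; limma adjusted p = 6.78e-08). Mrpl12, low in Cdk4 +/- cells, was at 3150 and 4220 in +/+ liver and 1590, 1540 and 1750 in ESVJ (1.15; limma adjusted p = 0.00119). These 3 genes were higher than E14 as well (2.36, 1.45 and 1.42). Mrpl45 went the other way, with 497 and 426 in +/+ liver against 1710, 2200 and 1610 in ESVJ (-1.91; limma adjusted p = 4.29e-08), and its second probe set gave -2.65. Mrpl35 and Mrpl4 fell by 1.17 and 1.16.

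In the mitochondrial small subunit, Mrps12, a protein of the decoding centre, was at 343 and 320 in +/+ liver and 1610, 1890 and 1220 in ESVJ (-2.12 ± 0.30, SE; limma adjusted p = 5.59e-06). Mrps2 and Mrps5 fell by 1.82 and 1.64, from means of 784 and 556 to 197 and 157. Mrps17 rose, with 3570 and 5550 in +/+ liver against 1630, 1770 and 1980 in ESVJ (1.30; limma adjusted p = 7.35e-05). Members of the same subunit thus lay on both sides. Against E14, Mrpl50 was higher by 1.77 and Mrpl13 by 1.73, beside 0.59 (not passed) and 0.76 against ESVJ; the second probe set of Mrpl50 gave 0.50 against E14 and did not pass.

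In the livers labelled Abca1 +/- no member passed against +/+ livers by limma, against 0.014% of all probe sets. At an unadjusted p under 0.05 there were 13 of 27 cytosolic and 20 of 58 mitochondrial members, and 18.4% of all probe sets. For the cytosolic set most differences were negative, 23 of 27 (85.2%), with a median of -0.69. For the mitochondrial set 48 of 58 were negative (82.8%), with a median of -0.48. Of all probe sets 43.1% were negative, with a median of 0.11. The cytosolic level was -1.30 in replicate 1 and -0.60 in replicate 2, and the mitochondrial level -0.90 and -0.28, each below both +/+ livers. Replicate 1 is the array with the 3′ to 5′ ratios of 4.10 and 8.23, and replicate 2 had 1.13 and 2.14. Without replicate 1 the medians were -0.50 and -0.38 and no member passed, against 0.13% of all probe sets. Without replicate 2, 16 of 28 cytosolic and 23 of 59 mitochondrial members passed, against 22.8% of all. In both of these fits the spread comes from the +/+ livers alone, with 1 residual degree of freedom, and the lone array is assumed to vary like them. In the fit of all 16 arrays 15 of 28 and 25 of 58 members passed, against 25.1% of all probe sets. The part of RNA quality in these values was not tested.

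Rps19, a small subunit protein, was at 1680 and 4130 in the livers labelled Abca1 +/- and 9250 and 8760 in +/+ livers (-1.76; limma adjusted p = 0.117). Mrps10 was at 163 and 434 against 829 and 1110 (-1.72; limma adjusted p = 0.121). In both genes replicate 1 was the lowest array. Rpl22 was higher by its chosen probe set, at 263 and 350 against 40.3 and 95.6 (1.81; limma adjusted p = 0.117). Its mean of 68 in +/+ livers was under the signal filter, which it reached only through the livers labelled Abca1 +/-. This favours a rise, so the test of Rpl22 is not used as support. None of these differences passed the test.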

How the data were processed

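The deposited values are the authors' MAS5.0 signals at default settings, per the labels, a linear intensity per probe set; the 2% trimmed mean of the deposited signals was 1501 or 1502 on every array. Here signals were scaled to a 2% trimmed mean of 500, 32 was added and log2 was taken, which understates changes of low genes. Tests used limma 3.58.1 (R 4.3.3, eBayes with intensity trend). Adjusted p is by Benjamini-Hochberg across every probe set whose mean signal reached 100; "passed", "fell" and "rose" mean an adjusted p under 0.05. The 12 ES arrays (7349 probe sets, 8 residual degrees of freedom), the 4 liver arrays (7160, 2) and, for liver against ES cells, all 16 arrays (7841, 10) were fitted. The annotation gives a single gene for 10855 of the 12488 probe sets. Members, gene lists and naming rules were chosen with earlier results of these data known. Up to 6 members per set and direction were named by largest difference, or the 3 of smallest p where fewer than 3 passed, with the members of highest signal (not ranked in the text, since probe sets cannot be compared) and of lowest signal, paralogues and their parents; second probe sets and genes of 2 pathway lists were named beside them. The script was tested on simulated data. The number of arrays limits the precision: the median standard error was 0.17 in ES cells, 0.24 for liver against ES cells and 0.38 between livers. The closing section gives the alternatives; leaving out arrays of high BioB signal or replicate 1 of the livers labelled Abca1 +/- was chosen after the data were seen.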

Additional observations from a re-analysis of the deposited data

How the results depend on the processing

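No paired analysis was possible because the labels carry no replicate numbers. For Cdk4 +/- against E14, with no signal filter, with no intensity trend, in a fit of only the compared groups and in one of all 16 arrays, 0 cytosolic members were called, as also without marked probe sets and with probe sets averaged per gene; the mitochondrial count was 3, 3, 2 and 0 in the first 4. Without the arrays of high BioB signal, 2 cytosolic members were called. With 1 array left out, the cytosolic count was 0 to 2 and the mitochondrial 0 to 10, with medians of -0.08 to 0.17 and -0.24 to -0.09. For Abca1 +/- ES against ESVJ, counts stayed 0 and medians ran from -0.17 to 0.07 and from -0.01 to 0.10.

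For E14 against ESVJ, 7 cytosolic members were called with quantile normalization (median -0.065), 8 with 15 mitochondrial members in the fit of all 16 arrays, and 7 without the arrays of high BioB signal; leaving out 1 array gave 7 to 19 cytosolic and 17 to 26 mitochondrial calls, with medians of -0.54 to -0.39 and -0.38 to -0.23. For +/+ liver against ESVJ, quantile normalization gave 23 cytosolic calls and a median of -0.56, equal medians gave medians of 0.48 and 0.38, leaving out marked probe sets gave -0.36 for the cytosolic set, and leaving out arrays of high BioB signal gave -0.18. Single members that changed sign were Rpl41 (-0.13, quantile normalization) and Rps4l (0.57, without marked probe sets).

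The setting without arrays of high BioB signal was chosen after seeing the data. Against E14 the liver medians were -0.55 and 0.53 with quantile normalization and 0.69 and 0.57 with equal medians, and 9 cytosolic members were called without the arrays of high BioB signal. Rpl41 (-0.041), Rps18 (-0.024), Rps24 (-0.30) and Rps3 (-0.35) changed sign with quantile normalization, Rps4l (0.75) without marked probe sets and Rps4x (0.30) with probe sets averaged per gene. With 1 array left out, liver against ESVJ gave 9 to 14 cytosolic and 26 to 43 mitochondrial calls (medians -0.20 to 0.24 and -0.08 to 0.15), and against E14 9 to 21 and 29 to 39 (0.21 to 0.53 and 0.21 to 0.36). Between livers, the fit of all 16 arrays called 15 and 25, and leaving out 1 array, which leaves 1 group with a single array, 0 to 16 and 0 to 23 (-1.12 to -0.50 and -0.61 to -0.38). The difference of both ES effects kept 0 to 1 calls in each set. Counts of called members in this section stand without the share of all probe sets called in the same fit. They therefore cannot tell a change of members from one of all calls. Except where the construction shows it, as with fewer arrays, the cause was not tested.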
